A study of Mus musculus with 4 samples.

Results

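Metal handling by the epithelium of the suckling small intestine was examined through 10 genes: the metallothioneins Mt1 and Mt2, the zinc and manganese transporters Slc39a4, Slc39a5 and Slc30a10, and the iron genes Slc11a2, Slc40a1, Heph, Cybrd1 and Tfrc. The genes were taken by symbol from a list, and all 10 were present among the 32227 features measured. Their levels came from single-cell RNA libraries of epithelium that was released, at postnatal day 6 (P6), from jejunum and ileum segments of wild-type mice. There were 4 libraries, 1 for each segment of each of 2 mice, so that ileum 1 and jejunum 1 came from mouse 1, and ileum 2 and jejunum 2 from mouse 2. Both segments of a mouse shared a batch, mouse 1 in batch 1 with the label male and mouse 2 in batch 2 with the label female. No genotype, treatment or age was compared, and every library came from untreated wild-type tissue.

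The sex labels went against sex-linked transcripts in all 4 libraries. Xist, expressed from the inactive X chromosome, was at 575 and 466 CPM (counts scaled to 1000000 UMIs) in ileum 1 and jejunum 1, and at 0.705 and 0.907 CPM in ileum 2 and jejunum 2. Eif2s3y, on the Y chromosome, stood at 0.0115 and 0.119 CPM in the libraries of mouse 1, against 88.1 and 67.0 CPM in those of mouse 2. The mice are therefore called by number, and mouse, sex and batch cannot be told apart in any difference between them. After filtering, 30521 cells remained, between 5722 and 8997 per library. Depth went with region: the median cell of both ileum libraries held 12048 and 10916 unique molecular identifiers (UMIs), against 4690 and 5884 for jejunum libraries. Levels are for this reason given at equal depth, as CPM over cells thinned to 2000 UMIs each. Only 2 barcodes were found in more than 1 library. Enterocyte-like cells made up 87.5 to 89.6% of each library, and stem/progenitor-like cells numbered 441 to 488 per library. The enteroendocrine-like class held 46 to 76 cells per library, and goblet-like and immune-like cells were too few for a level by library.

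Zinc and iron are taken up across the brush border of enterocytes and passed to the blood across the basolateral membrane. Metallothioneins are small cysteine-rich proteins that bind zinc and copper, and their genes are induced by metals through the transcription factor MTF-1, which binds short metal response elements in their promoters, and also by glucocorticoids. Iron is reduced at the apical surface, imported as ferrous iron, and exported by ferroportin together with a ferroxidase, while transferrin receptor brings iron into cells from the blood side. In the adult, iron absorption is concentrated in the duodenum, upstream of both segments studied here.

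Mt1 and Mt2 lie next to each other on chromosome 8, and their promoters are shown because these genes differed most between the mice among the 10. RefSeq promoters were found for 6 of the 10 genes, on build GRCm38.p6, whereas the counts were made on GRCm39 according to the submitters' processing notes. The 250 bases before the start of each gene are given below on the plus strand, 5′ to 3′, at chr8:94178839-94179088 for Mt1 and chr8:94172368-94172617 for Mt2. Capitals mark matches to the core of the metal response element, written TGCACNC or TGCGCNC and searched on both strands.
Mt1: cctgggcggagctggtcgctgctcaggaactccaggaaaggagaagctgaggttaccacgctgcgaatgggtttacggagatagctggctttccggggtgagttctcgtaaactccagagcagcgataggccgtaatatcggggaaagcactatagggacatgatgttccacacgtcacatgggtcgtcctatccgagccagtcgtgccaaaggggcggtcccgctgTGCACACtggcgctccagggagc
Mt2: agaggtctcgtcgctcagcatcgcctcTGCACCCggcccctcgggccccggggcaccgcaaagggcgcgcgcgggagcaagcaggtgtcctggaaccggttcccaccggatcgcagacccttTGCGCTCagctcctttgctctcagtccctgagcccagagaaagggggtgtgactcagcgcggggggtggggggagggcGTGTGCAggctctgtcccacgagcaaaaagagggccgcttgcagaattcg
The Mt1 window held 1 match, 23 bases before the start, and the Mt2 window held 3, at 223, 128 and 50 bases before it. In the 50 bases after the start there were 2 more for Mt1 (TGCACTC and TGCGCTC) and 1 more for Mt2 (GTGCGCA). Among all 32851 promoters in the table, 21.4% held at least 1 match in the 250 bases and 1.26% held at least 3. Over all 300 bases, the 3 matches of Mt1 were reached by 1.97% of promoters and the 4 of Mt2 by 0.517%. Of the other genes, the Slc30a10 window (chr1:185454598-185454847, plus strand) also held 3 matches and that of Cybrd1 (chr2:71117804-71118053, plus strand) held none. These counts hold for the RefSeq start used, and bases further downstream were not searched, so they do not rank the genes by their metal response elements. A match describes the letters and does not show binding.

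The metallothioneins differed between the mice and not consistently between the regions. In enterocyte-like cells, Mt1 (ENSMUSG00000031765) was at 1168 CPM in ileum 1, 448 in ileum 2, 1187 in jejunum 1 and 376 in jejunum 2. Both libraries of mouse 1 were thus high and both of mouse 2 low, 2.60 times apart in the ileum and 3.15 times in the jejunum. Mt2 (ENSMUSG00000031762) went the other way, at 12.7 CPM in ileum 1, 164 in ileum 2, 14.2 in jejunum 1 and 161 in jejunum 2. Mt2 was therefore 12.8 times higher in mouse 2 in the ileum and 11.3 times higher in the jejunum. With 1 library per mouse and region these contrasts have no replicate test. Among the 7516 genes with at least 20 CPM in a library, 5 (0.0665%, Mt2 included) were as far apart between the mice, in the same direction in both regions, as Mt2, and 28 (0.373%) as far apart as Mt1. For the other 8 genes this share ran from 14.9 to 100%.

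**Figure D1:**
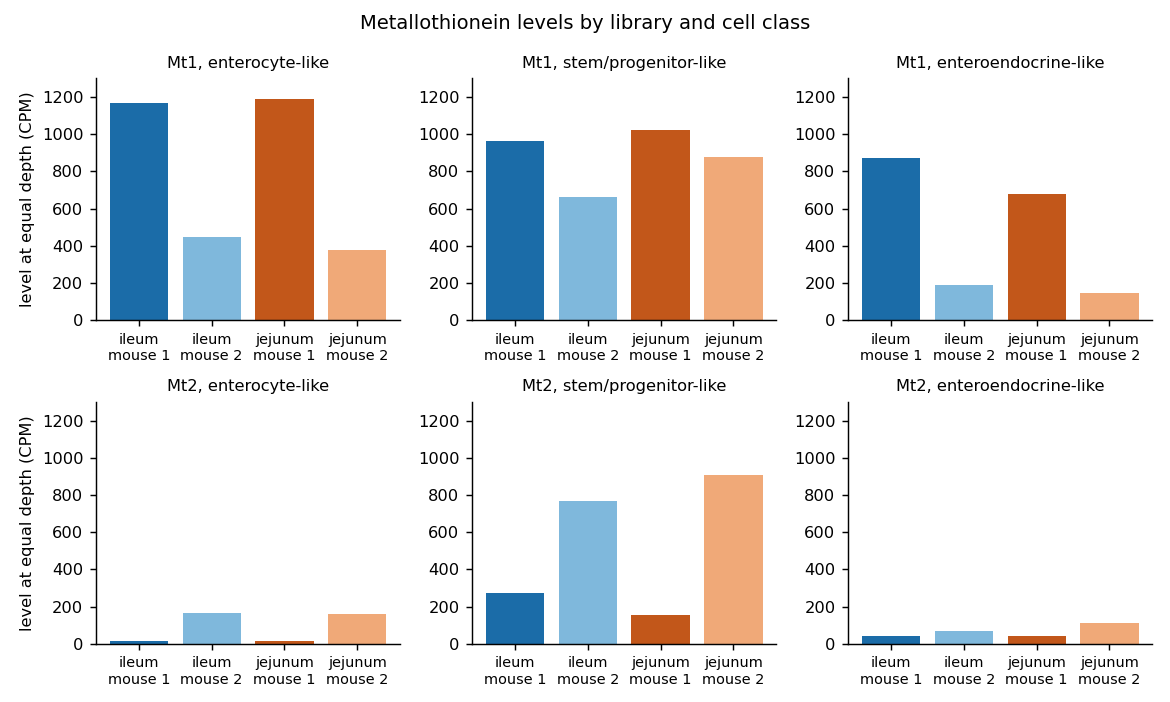
Levels of Mt1 (top row) and Mt2 (bottom row) in CPM over cells thinned to 2000 UMIs, 1 bar per library, in enterocyte-like, stem/progenitor-like and enteroendocrine-like cells. In enterocyte-like cells Mt1 stood at 1168 and 1187 CPM in mouse 1 against 448 and 376 in mouse 2, and Mt2 at 12.7 and 14.2 against 164 and 161.

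The same picture was seen in the share of cells with a UMI at this depth. Mt1 was detected in 83.0% (95% exact binomial interval 82.0 to 83.9%) of enterocyte-like cells of ileum 1 and 85.3% of jejunum 1, against 45.9% and 42.7% in ileum 2 and jejunum 2. Mt2 was detected in 2.19% (1.84 to 2.58%) and 2.67% of cells of mouse 1 and in 19.9% and 19.6% of cells of mouse 2. These intervals cover counting error only. The 10% of cells with most Mt2 held 69.7% of its UMIs in ileum 2 and 70.0% in jejunum 2.

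The balance between both genes shifted accordingly. There were 91.6 Mt1 UMIs for each Mt2 UMI in ileum 1 and 83.6 in jejunum 1, against 2.74 in ileum 2 and 2.34 in jejunum 2. The transcripts are close copies, so that part of the reads may be assigned to the wrong member; this was not tested. The sum of both also differed, at 1180 and 1201 CPM in mouse 1 and 612 and 537 CPM in mouse 2.

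Mt2 also differed by cell class. In stem/progenitor-like cells Mt2 was at 271 CPM in ileum 1, 767 in ileum 2, 154 in jejunum 1 and 906 in jejunum 2, which was 4.69 to 21.2 times its enterocyte-like level in the same library. All 4 libraries showed this direction. Mt1 in this class was at 965, 665, 1024 and 877 CPM in the same order of libraries, so that the mice were only 1.45 and 1.17 times apart in the ileum and jejunum. It was higher than in enterocyte-like cells in 2 of 4 libraries, those of mouse 2. The summed metallothionein level in stem/progenitor-like cells, 1235, 1432, 1177 and 1783 CPM, was not lower in mouse 2, in contrast to enterocyte-like cells. In enteroendocrine-like cells Mt1 was at 873 and 678 CPM in ileum 1 and jejunum 1 against 187 and 144 CPM in ileum 2 and jejunum 2. On summed counts this was 80.0, 41.3, 59.7 and 35.3% of its enterocyte-like level in ileum 1, ileum 2, jejunum 1 and jejunum 2, beside 53.3, 33.6, 22.9 and 22.3% for the summed enterocyte markers. The part of carried enterocyte RNA in this mouse difference was not tested. Mt2 there rested on 5 to 10 UMIs per library.

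Glucocorticoid and stress genes were given beside these differences because both lists were fixed together with the members. The summed level of 10 glucocorticoid response genes in enterocyte-like cells was 1067 CPM in ileum 1, 1097 in ileum 2, 1021 in jejunum 1 and 1125 in jejunum 2. That of 18 genes induced by tissue dissociation was 5228, 4844, 4738 and 4984 CPM. The glucocorticoid list was slightly higher in mouse 2 in both regions, and the dissociation list had no common direction. Their part in the metallothionein difference was not tested.

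Between the regions, no difference was found for the metallothioneins. The edgeR quasi-likelihood test on UMIs summed per library gave a log2 fold change (ileum over jejunum) of −0.12 ± 0.55 (SE, n = 2 libraries per region, adjusted p = 0.904) for Mt1 and −0.06 ± 1.42 (adjusted p = 0.985) for Mt2 in enterocyte-like cells. The standard errors were wide, and libraries of the same region came from mice that lay far apart. With the mouse as a block they were narrower. The log2 fold change was then −0.04 ± 0.14 (edgeR adjusted p = 0.849) for Mt1 and −0.11 ± 0.11 (adjusted p = 0.531) for Mt2. Within mouse 1 the ileum was 0.984 times the jejunum for Mt1 and 0.897 times for Mt2, and within mouse 2 it was 1.19 and 1.02 times. Since both segments came from the same animals, p-values here rest on 2 animals only.

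The zinc transporters were steadier between the mice. Slc39a4 (ENSMUSG00000063354) encodes ZIP4, the apical zinc importer whose loss causes acrodermatitis enteropathica in humans. It was at 196 CPM in ileum 1, 246 in ileum 2, 325 in jejunum 1 and 237 in jejunum 2 in enterocyte-like cells. The regions overlapped, and the log2 fold change of −0.45 ± 0.19 did not pass the test (edgeR adjusted p = 0.182). Slc39a5 (ENSMUSG00000039878) encodes ZIP5, a zinc transporter of the basolateral membrane, and was at 148, 197, 162 and 182 CPM in the same order. Its regional log2 fold change was −0.11 ± 0.21 (adjusted p = 0.761). Slc30a10 (ENSMUSG00000026614), an exporter of manganese, was at 42.2, 34.3, 35.6 and 46.5 CPM, and its log2 fold change was −0.23 ± 0.21 (adjusted p = 0.501).

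The zinc genes also differed in how far they were shared with stem/progenitor-like cells. Slc39a5 was at 91.3, 105, 98.7 and 122 CPM there (ileum 1, ileum 2, jejunum 1, jejunum 2), 0.535 to 0.668 times its enterocyte-like level. Slc39a4 was at 52.5, 54.4, 50.4 and 39.4 CPM, 0.155 to 0.268 times. The enterocyte markers themselves, summed over 10 genes, reached 15.7 to 24.3% of their enterocyte-like level in the stem/progenitor-like class. Slc39a4, at 15.8 to 28.3% on summed counts, was close to that range, and no expression in these cells is read from it. Slc30a10 in this class was at 14.8, 8.86, 37.0 and 22.0 CPM, both ileum libraries below both jejunum libraries, on 7 to 33 UMIs. Its log2 fold change was −0.96 ± 0.33 (edgeR adjusted p = 0.181), and it passed with the mouse as a block (adjusted p = 0.0107).

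**Figure D2:**
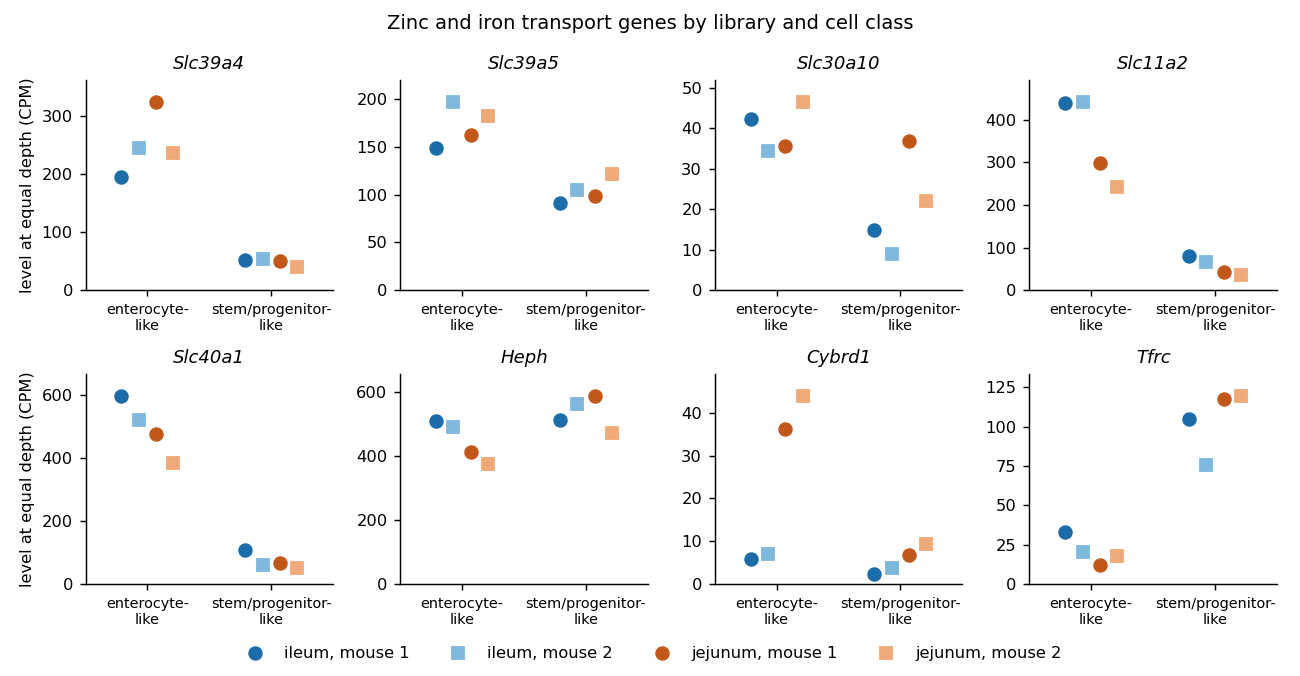
Levels of the 8 zinc and iron transport genes in CPM over cells thinned to 2000 UMIs, 1 point per library (blue, ileum; orange, jejunum; circles, mouse 1; squares, mouse 2), in enterocyte-like and stem/progenitor-like cells, each panel with its own axis from 0. Cybrd1 separated the regions in enterocyte-like cells (5.86 and 7.07 CPM in the ileum, 36.1 and 43.9 in the jejunum), whereas Tfrc separated the classes (12.1 to 32.8 CPM against 75.9 to 119).

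Of the iron genes, Cybrd1 carried the clearest regional difference. Cybrd1 (ENSMUSG00000027015) encodes DCYTB, the ferric reductase of the brush border. In enterocyte-like cells it was at 5.86 CPM in ileum 1, 7.07 in ileum 2, 36.1 in jejunum 1 and 43.9 in jejunum 2. Both jejunum libraries lay above both ileum libraries, 6.16 times in mouse 1 and 6.21 times in mouse 2. The log2 fold change was −2.72 ± 0.25 (edgeR, n = 2 per region, adjusted p = 0.0147), and it passed under all 13 alternative settings tried. In this class 1362 of 19759 genes tested passed, that is 6.89% (ileum higher in 3.98%, jejunum higher in 2.91%), and Cybrd1 and Slc11a2 were the 2 of the 10 genes that did. Cybrd1 was a low transcript even in the jejunum, with a UMI in 6.91% and 7.99% of enterocyte-like cells against 1.14% and 1.39% in the ileum. In enteroendocrine-like cells of all 4 libraries together it had no UMI in 246 cells at 2000 UMIs, which allows a share of up to 1.22%, close to the ileal shares. Before thinning, the median depth was 4962 to 13951 UMIs in enterocyte-like and 3190 to 5328 in enteroendocrine-like cells.

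Slc11a2 and Slc40a1 carry iron into and out of the enterocyte. Slc11a2 (ENSMUSG00000023030), the gene of the apical ferrous iron importer DMT1, was at 439 CPM in ileum 1, 441 in ileum 2, 298 in jejunum 1 and 243 in jejunum 2. It was higher in the ileum in both mice, by 1.47 and 1.81 times, opposite to Cybrd1. Its log2 fold change of 0.68 ± 0.14 lay at the threshold (edgeR adjusted p = 0.0498), passed in 6 of the 13 alternatives, and did not pass with any 1 of the libraries left out (adjusted p from 0.0596 without jejunum 1 to 0.180 without jejunum 2) or at equal depth (adjusted p = 0.101). Slc40a1 (ENSMUSG00000025993), which encodes ferroportin, the known iron exporter of the basolateral membrane, was at 598, 522, 478 and 384 CPM in the same order. The ileum libraries lay above the jejunum libraries, but the log2 fold change of 0.23 ± 0.15 did not pass (adjusted p = 0.354). Heph (ENSMUSG00000031209), the ferroxidase hephaestin that works with ferroportin, was at 508, 490, 412 and 373 CPM, with a log2 fold change of 0.15 ± 0.13 (adjusted p = 0.478). At equal depth the regions did not overlap for 5 of the 10 genes (Slc11a2, Slc40a1, Heph and Tfrc higher in the ileum, Cybrd1 lower), but 58.0% of all 19759 genes were without overlap in this sense, with 38.5% higher in the ileum and 19.4% lower.

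Slc11a2 and Slc40a1 were low in stem/progenitor-like cells, while Heph was not. Slc11a2 was at 81.1 CPM in ileum 1, 65.8 in ileum 2, 41.5 in jejunum 1 and 36.0 in jejunum 2, 0.139 to 0.185 times its enterocyte-like level. Slc40a1 was at 107, 60.8, 67.3 and 51.0 CPM, 0.116 to 0.180 times. On summed counts they were at 14.2 to 21.7% and 10.9 to 20.1%, close to the 15.7 to 24.3% of the enterocyte markers in this class. No expression there is read from them, and the part of carried RNA was not tested. Heph was at 510, 562, 586 and 470 CPM, 1.00 to 1.42 times its enterocyte-like level. The few immune-like cells also held Heph UMIs, 17 in 19 ileal cells and 40 in 31 jejunal cells (447 and 645 CPM pooled). Enterocyte markers stood at 9.31 to 45.7% of their enterocyte-like level in these cells, and the part of carried RNA was not tested.

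Tfrc showed the opposite class pattern. Tfrc (ENSMUSG00000022797), transferrin receptor 1, brings transferrin-bound iron into dividing cells. It was at 105 CPM in ileum 1, 75.9 in ileum 2, 118 in jejunum 1 and 119 in jejunum 2 in stem/progenitor-like cells, against 32.8, 20.0, 12.1 and 17.8 CPM in enterocyte-like cells. It was higher in stem/progenitor-like cells in all 4 libraries, by 3.21 to 9.72 times, and the classes did not overlap. The order of the regions differed between the classes, with the ileum above the jejunum in enterocyte-like cells and below it in stem/progenitor-like cells. In enterocyte-like cells the log2 fold change was 0.72 ± 0.19 (edgeR adjusted p = 0.0807, and 0.0155 by DESeq2). Of the 13 alternatives DESeq2 was the only 1 in which this change passed, and at equal depth the edgeR adjusted p was 0.217. Within mouse 1 the ileum was 2.70 times the jejunum and within mouse 2 only 1.13 times. Markers of erythroid cells, which also express Tfrc, summed to 7.58 CPM in ileum 1 and 0.90 to 0.98 CPM in the other libraries in this class, and their part in the result was not tested.

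Among stem/progenitor-like cells, 366 of 12597 genes passed the regional test, that is 2.91% (ileum higher in 1.69%, jejunum higher in 1.21%). Slc11a2 was the only one of the 10 genes among them, with a log2 fold change of 0.96 ± 0.20 (edgeR adjusted p = 0.0297). Its level in this class is the one from which no expression was read above. It passed in 8 of 12 alternatives and not without ileum 1 (adjusted p = 0.230), with cells at equal depth (adjusted p = 0.0620), without the highest doublet scores (log2 0.59, adjusted p = 0.165) or at a clustering resolution of 0.5 (log2 0.57, adjusted p = 0.113). Slc40a1 was at 0.85 ± 0.23 (adjusted p = 0.0828), and Tfrc was at −0.45 ± 0.15 (adjusted p = 0.167). With the mouse as a block, Slc11a2 (adjusted p = 0.000126), Slc40a1 (adjusted p = 0.000146), Slc30a10 and Tfrc (adjusted p = 0.0187) all passed. Many more genes passed with this block, 1101 against 366 without it. In CPM, the summed enterocyte markers were lower for the ileum in this class, with 3164 and 2931 against 3971 and 4236 for the jejunum. Enterocyte-like cells already differed in this direction (ileum 1, 12997 CPM; ileum 2, 15599; jejunum 1, 25359; jejunum 2, 24319). As a share of that level, the markers stood at 24.3% (ileum 1), 18.8% (ileum 2), 15.7% (jejunum 1) and 17.4% (jejunum 2). This share was higher for the ileum, the direction of Slc11a2 and Slc40a1. The part of carried enterocyte RNA in their calls was not tested. At equal depth Cybrd1 rested on 2 and 3 ileal and 6 and 8 jejunal UMIs, and its log2 fold change was −1.04 ± 0.48 (adjusted p = 0.336). Slc39a4, Slc39a5, Heph, Mt1 and Mt2 lay between −0.20 and 0.15, with adjusted p of 0.596 to 0.970. At equal depth 41.3% of all genes did not overlap between the regions in this class, and of the 10 genes Slc39a4 and Slc11a2 lay higher in the ileum and Slc30a10, Cybrd1 and Tfrc higher in the jejunum.

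**Figure D3:**
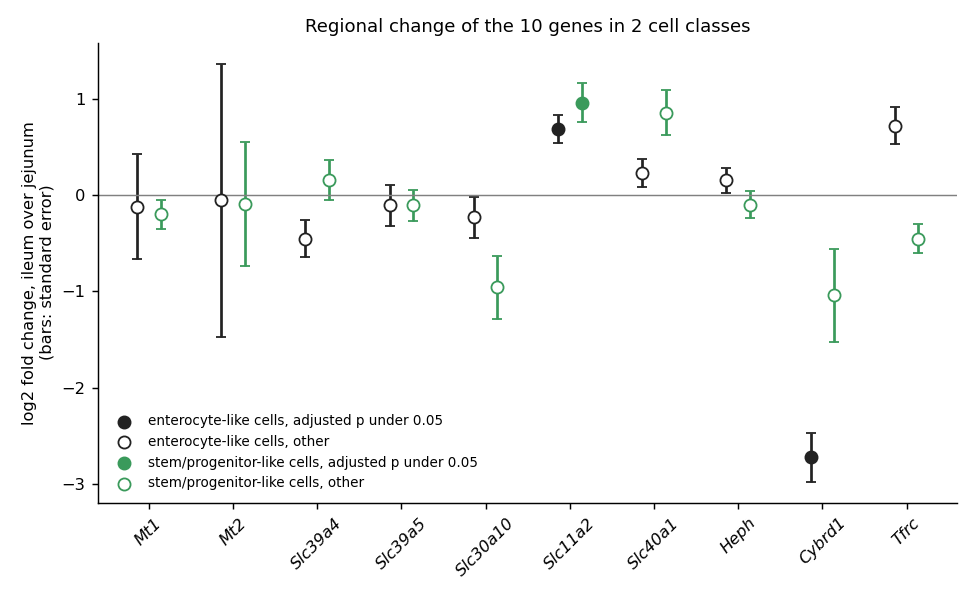
Log2 fold change of each of the 10 genes, ileum over jejunum, from the edgeR fit in enterocyte-like (black) and stem/progenitor-like cells (green), with bars of 1 standard error and filled points where the adjusted p is under 0.05. Cybrd1 lies at −2.72 in enterocyte-like cells, and the bars of Mt2 are the widest in both classes.

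The regional change itself was compared between the classes, as an interaction in a fit with the library as a block. It differed for 1794 of 18945 genes, that is 9.47% (4.92% more positive and 4.55% more negative in enterocyte-like cells), and for 4 of the 10. For Tfrc the ileum-over-jejunum change was 1.17 ± 0.17 higher (log2) in enterocyte-like than in stem/progenitor-like cells (edgeR adjusted p = 7.38e-05). It passed in 11 of 12 alternatives the most of the 4. The change was lower in enterocyte-like cells by −1.71 ± 0.49 for Cybrd1 (adjusted p = 0.0276), by −0.62 ± 0.19 for Slc39a4 (adjusted p = 0.0375) and by −0.61 ± 0.18 for Slc40a1 (adjusted p = 0.0387). Of the 12 alternatives, Cybrd1 passed in 6, and Slc39a4 and Slc40a1 in 5 each. Without ileum 1, which leaves 1 ileum library, these 3 no longer passed. For the last pair, no expression in stem/progenitor-like cells was read from the levels given above. The other 6 genes had adjusted p of 0.168 to 0.935.

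Within the enterocytes, 9 of the 10 genes differed in a common direction over all 4 libraries between clusters with low and with high mean villus tip levels. Between single cells ranked by villus tip transcripts 5 did. The share of all genes with a common direction was not computed, so neither count is read as a trait of the 10 genes. The 14 enterocyte-like clusters with at least 20 cells in each library were ordered by the summed level of 6 villus tip genes (Ada, Nt5e, Krt20, Slc28a2, Klf4 and Egfr), an ordering chosen after the data had been seen. The tip level, as a mean of the 4 libraries, ran from 371 to 648 CPM, and the order did not hold within each library. In jejunum 1 the cluster led by Sprr2a2 and Serpinb6b, among the 3 highest by the mean, was at 387 CPM. The cluster led by Cyp2d26 and Fam13a, among the 3 lowest, was at 386 CPM there. The 10 genes had been left out of the clustering, and the contrasts between clusters are descriptions without a test. The 3 lowest clusters were led by Snhg20 and Aldh1a1, by Cyp2d26 and Fam13a, and by Celf2 and Rmrp. The 3 highest were led by Airn and Kcnq1ot1 or by Sprr2a2. In mean stem/progenitor markers, the Celf2 and Rmrp cluster was at 582 CPM, against 229 to 369 CPM in the other clusters of this order. At the lower clustering resolution tried, a cluster led by Celf2, Ccnb1ip1 and Rmrp was named stem/progenitor-like, on 7 markers. How far the low end repeats the contrast with stem/progenitor-like cells given above was not tested.

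Slc39a4 was higher at the high end of this order in every library. It went from 83.5 to 274 CPM in ileum 1, from 67.5 to 365 in ileum 2, from 170 to 388 in jejunum 1 and from 108 to 364 in jejunum 2, 2.28 to 5.41 times. Slc11a2 was 1.81 to 2.37 times higher at that end and Slc40a1 1.62 to 2.43 times, in all 4 libraries. Cybrd1 was higher as well, with 18.4 against 40.4 CPM in jejunum 1 and 26.9 against 42.8 CPM in jejunum 2, while in the ileum the low end held only 3 and 1 UMIs. The importer and exporter of iron and the apical importer of zinc thus lay on the same side.

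The metallothioneins lay on the other side. Mt1 went from 1721 CPM in the low clusters to 770 in the high ones in ileum 1, from 778 to 150 in ileum 2, from 1599 to 758 in jejunum 1 and from 594 to 155 in jejunum 2. The low end was higher in both mice. Mt2 was 0.127 to 0.559 times as high at the high end, Tfrc 0.260 to 0.569 times, Slc39a5 0.498 to 0.643 times and Heph 0.657 to 0.836 times. Slc30a10 had no common direction (0.629 to 1.16 times). Spearman's rho between the tip level and a gene's level over the 14 clusters ran from 0.56 to 0.78 for Slc39a4 and from −0.69 to −0.38 for Mt1 across the libraries. It changed sign between libraries for Heph (−0.71 to 0.055), Tfrc (−0.61 to 0.055) and Slc30a10 (−0.53 to 0.26). For Mt2 it ran from −0.70 to −0.011, and the remaining genes also kept 1 sign. The clusters of a library share its RNA background and differ in depth, with median UMIs of 2594 to 8930 at the low end and 2778 to 17259 at the high end before thinning.

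**Figure D4:**
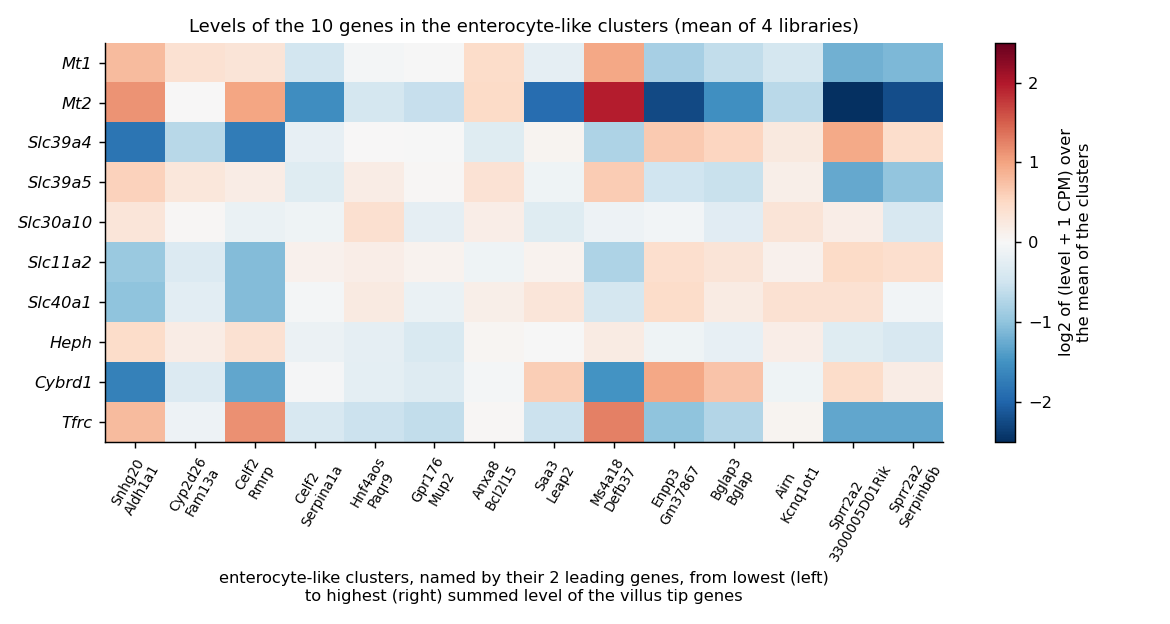
Level of each of the 10 genes in the 14 enterocyte-like clusters, as log2 of the level (mean CPM of the 4 libraries, plus 1) over the mean of the clusters, with clusters named by their 2 leading genes and ordered from lowest to highest summed villus tip genes. Slc39a4, Slc11a2 and Slc40a1 are lowest in the Snhg20 and Celf2/Rmrp clusters at the left, and Mt2 is highest in the cluster led by Ms4a18.

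Ranking single cells by the same tip genes, of which the median cell held 1 UMI, gave smaller differences. When the enterocyte-like cells of a library were divided into 3 equal parts, Slc39a4 was 1.06 to 1.20 times, Slc40a1 1.02 to 1.12 times and Cybrd1 1.01 to 1.27 times higher in the highest than in the lowest part in all 4 libraries. Mt2 (0.750 to 0.873 times) and Slc39a5 (0.865 to 0.970 times) were lower in all 4. Mt1 ran from 0.823 to 1.03 times, and the other 4 genes had no common direction or no difference in some library.

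A cluster led by Ms4a18, Defb37 and Fabp6 (1896 cells) held the highest mean metallothionein levels over the 4 libraries among the 14 enterocyte-like clusters, although other clusters were higher in ileum 1. Mt1 there was at 2004 CPM in ileum 1, 1157 in ileum 2, 1909 in jejunum 1 and 1230 in jejunum 2, and Mt2 ranged from 40.0 and 47.3 CPM in mouse 1 to 605 and 763 CPM in mouse 2. The mouse difference was thus present within this cluster. Tfrc was at 69.9, 38.7, 33.3 and 68.5 CPM in it, above its level over all enterocyte-like cells in every library.

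Across single enterocyte-like cells, few genes followed the members. The highest mean Pearson r over the 4 libraries (log2 of UMIs + 1 at 2000 UMIs, 4831 to 7429 cells per library) was 0.32, between Mt1 and Lypd8. The next genes for Mt1 were the ribosomal protein genes Rps4x (0.28) and Rps12 (0.27). Mt2 was most like Mt1 (mean r = 0.24), at 0.45 and 0.42 in ileum 2 and jejunum 2 but 0.09 and 0.02 in ileum 1 and jejunum 1, where Mt2 was nearly undetected. Slc39a4 was most like the lysosomal protease genes Lgmn (0.24) and Ctsl (0.24) and the apolipoprotein gene Apoa4 (0.21). Slc11a2 was most like Lgmn (0.21) and Gpx3 (0.20). The remaining 6 genes had no partner with a mean r of at least 0.2.

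Other metal genes were read from lists outside the 10. Of 36 further iron genes, 34 were tested in enterocyte-like cells, of which 7 were called for the ileum and 1 for the jejunum (all genes in this class, 3.98% and 2.91%), with a median log2 fold change of −0.04 beside −0.01 for all genes. Ftl1, the ferritin light chain, had 1079 and 798 CPM in ileum libraries against 337 and 343 CPM in jejunum libraries (log2 fold change 1.35 ± 0.17, edgeR adjusted p = 0.0216), although its processed copies in the genome may take part of its reads. The heavy chain Fth1, which fell outside the naming rule, had 2520 and 2624 CPM in ileum libraries against 2606 and 2408 CPM in jejunum libraries (adjusted p = 0.792).

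Transferrin and haem genes were among the 8 as well. Trf, the plasma carrier of iron, was higher in the ileum (47.7 and 26.8 against 10.8 and 7.31 CPM, log2 fold change 1.92 ± 0.31, adjusted p = 0.0283). Hmox1, which breaks down haem, was also higher (50.1 and 38.9 against 22.4 and 19.8 CPM, 0.96 ± 0.16, adjusted p = 0.0303), and so was the efflux pump gene Abcg2 (0.75 ± 0.16, adjusted p = 0.0497). Flvcr1, known as a haem exporter, was the gene that went the other way, with 39.3 and 94.7 against 270 and 292 CPM (−2.16 ± 0.44, adjusted p = 0.0473).

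Of 25 further zinc genes, 22 were tested, of which 1 was called for the ileum and 3 for the jejunum (beside 3.98% and 2.91% of all genes), with a median of −0.09. The Golgi-associated zinc transporters Slc39a9 (76.9 and 77.7 against 136 and 165 CPM, log2 fold change −1.07 ± 0.17, adjusted p = 0.0274) and Slc30a6 (−1.21 ± 0.24, adjusted p = 0.0462) were the members above 20 CPM, and both were higher in the jejunum. Of 12 copper genes only Slc31a2, a copper transporter, passed, beside 6.89% of all genes (46.6 and 38.9 against 18.6 and 14.4 CPM, 1.27 ± 0.17, adjusted p = 0.0225), and the median was −0.07.

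Some iron genes, among them Cybrd1, Slc11a2 and Slc40a1, are known targets of the hypoxia-inducible factor HIF2α, encoded by Epas1. Of 18 genes of the hypoxia response, 3 were called for the ileum and 1 for the jejunum, beside 3.98% and 2.91% of all genes, with a median of 0.35. Epas1 itself had 39.6 and 33.8 CPM in ileum libraries against 7.40 and 5.12 CPM in jejunum libraries (log2 fold change 2.44 ± 0.20, edgeR adjusted p = 0.0134), a direction shared with Slc11a2 and opposite to Cybrd1. Slc2a1, the glucose transporter GLUT1, was also higher in the ileum (1.40 ± 0.22, adjusted p = 0.0281), as was Ndrg1 (1.30 ± 0.27, adjusted p = 0.0499), whereas Vegfa was higher in the jejunum (−1.38 ± 0.19, adjusted p = 0.0237). Of 10 glucocorticoid response genes Errfi1 alone passed, again beside 6.89% of all genes (−0.81 ± 0.16, adjusted p = 0.0420). None of the 18 dissociation genes did with edgeR, while 1 had an unadjusted p under 0.05 and DESeq2 called 1.

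In stem/progenitor-like cells, none of the 28 iron, 19 zinc and 12 copper genes tested passed with edgeR. At an unadjusted p under 0.05 there were 5, 3 and 2 of them, DESeq2 called none, and with the mouse as a block 1 of each list was called. Of the 18 hypoxia genes Epas1 was again higher in the ileum (29.7 and 18.1 against 10.2 and 4.17 CPM, edgeR adjusted p = 0.0436) and Hif1a higher in the jejunum (adjusted p = 0.0181). Of 17 dissociation genes tested, 4 were higher in the jejunum (Fos, Fosb, Hspa1a and Hspa1b) and none in the ileum, beside 1.21% and 1.69% of all genes in this class. These stress genes moved with region in the same class in which Slc11a2 was called, and their part in that result was not tested.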

How the data were processed

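The authors barcoded single cells with PIP-Seq and deposited a gene by cell matrix per library, whose values are UMI counts per gene, not normalized. Per the labels, reads were processed on GRCm39, and the study's methods name PIPseeker, run with its resolution set to 3, for the alignment. Cells with more than 1000 and fewer than 6000 genes and under 20% mitochondrial UMIs were kept, and genes found in at least 3 cells. Library totals were 57946770 to 131395559 UMIs. The members and lists were chosen with earlier results of these data known.

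Cells were clustered with Seurat 5.3.0 (R 4.3.3) at resolution 1 on 30 components and 1973 variable genes, with the 10 members and the list genes left out. A cluster was named from at least 3 marker genes seen in 10% of its cells and raised by more than 1 log2 unit. Enterocyte-like clusters needed 3 markers in 50% of cells and a mean log2 difference of the markers above −1. The other 191 to 409 cells per library stayed unnamed. Their summed enterocyte markers, 16151 to 33200 CPM, were above those of the enterocyte-like class in each library. Scrublet (scanpy 1.11.5, Python 3.11.15) marked 1 or 2 cells per library as doublets and has not worked, so no cell was removed by it. Leaving out the highest 6% of its scores was an alternative.

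Equal-depth levels used cells of at least 2000 UMIs, thinned to 2000. UMI counts summed per library and class were tested with edgeR 4.0.16 (TMM, filterByExpr, Benjamini-Hochberg over all genes tested, threshold 0.05), with DESeq2 1.42.0 as an alternative. The fits were tested on simulated data. The interaction had the library as a block. Both segments of a number came from the same mouse, as the series' design text and titles give it, and libraries of a mouse deviated together (r = 0.460 over 6906 genes of at least 20 CPM in enterocyte-like cells, 0.403 over 7894 in stem/progenitor-like cells). All 10 members are named. List genes are named where they were called in enterocyte-like cells with at least 20 CPM in the higher region, at most 4 per direction, and partners of a member where their mean r was among the highest 3 and at least 0.2.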

Additional observations from a re-analysis of the deposited data

Results flagged for a closer look

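In 4 of the 10 genes the change between ileum and jejunum differed between enterocyte-like and stem/progenitor-like cells by the interaction test in edgeR with the library as a block. The differences, as log2 values in enterocyte-like minus stem/progenitor-like cells, were 1.17 for Tfrc, −1.71 for Cybrd1, −0.62 for Slc39a4 and −0.61 for Slc40a1. For Tfrc the changes had opposite signs (0.72 in enterocyte-like cells, −0.45 in the other class), and neither passed alone (adjusted p = 0.0807 and 0.167). For Cybrd1 both changes were negative (−2.72 and −1.04), and its level in stem/progenitor-like cells rested on at most 8 UMIs per library at equal depth. For Slc39a4 the changes were −0.45 and 0.15, and for Slc40a1 0.23 and 0.85. Over the 12 alternatives the adjusted p ranged from 2.30e-09 to 0.0972 for Tfrc, from 0.0189 to 0.428 for Cybrd1, from 0.00592 to 0.418 for Slc39a4 and from 0.00387 to 0.692 for Slc40a1. Beside these, the summed enterocyte markers in the stem/progenitor-like class were 15.7 to 24.3% of their enterocyte-like level, and their part in the differences was not tested.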

How the results depend on the processing

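The limits are 2 mice, 1 library per mouse and region, and a depth that went with region. In enterocyte-like cells the 1362 genes called became 3099 with DESeq2, 510 without a low-count filter, and 569 to 1936 with 1 library left out (569 without ileum 1, 792 without jejunum 2). In stem/progenitor-like cells the 366 became 841 without the filter, 225 with cells thinned to 2000 UMIs (96 higher in the ileum and 129 lower, against 213 and 153), 196 without the highest doublet scores, and 246 to 830 with 1 library left out (830 without jejunum 1). For the interaction the 1794 became 1183 with DESeq2, 817 with thinned cells, and 1103 to 1807 with 1 library left out (1157 without ileum 1, 1103 without jejunum 2). The cause of these shifts was not tested. Along the tip genes, 5 members shared a direction in all libraries between parts of the cells and 9 between clusters, an alternative chosen after seeing the data. The share over all genes was not computed for either count.

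With the mouse as a replicate block, 2820 genes were called in enterocyte-like cells and 1101 in the other class. Without the library as a block, the interaction was called for 10 genes, none of them a member. Beside the calls of Slc40a1, Slc30a10 and Tfrc in stem/progenitor-like cells, the mouse block changed no member's call.

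Some log2 values changed sign, none of them called in the main test. With 1 library left out, the change in enterocyte-like cells ran from −0.77 (without ileum 1) to 0.80 (without jejunum 1) and was 0.33 without ileum 2 for Mt1. It ran from −2.98 to 2.77 for Mt2 (without ileum 2 and without jejunum 2), where it was 0.85 without ileum 1, from −0.41 to 0.14 for Slc39a5, and from −0.45 to 0.058 for Slc30a10. In stem/progenitor-like cells the same range was −1.19 to 1.74 for Mt2 (0.52 without ileum 1), −0.10 to 0.43 for Slc39a4 and −0.26 to 0.029 for Slc39a5. There Mt2 was called without jejunum 2 (1.74, edgeR adjusted p = 1.29e-12) and, with the opposite sign, without jejunum 1 (−0.88, adjusted p = 0.000445). Mt2 was 0.16 with the mouse block, and Slc39a4 −0.024 at resolution 0.5. In the interaction it was −0.44 to 0.81 for Mt1 (−0.21 without ileum 1), −1.37 to 0.66 for Mt2, −0.12 to 0.073 for Slc39a5 and −0.52 to 0.064 for Slc11a2. There Slc39a5 was also 0.0059 without the filter, 0.025 with thinned cells, 0.12 without the highest doublet scores and 0.015 at resolution 0.5, and Slc11a2 0.13 and 0.11 in the last pair. Cybrd1 could not be tested in stem/progenitor-like cells once thinned or without the highest doublet scores.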
